A study of Rattus norvegicus with 12 samples.

Results

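The ligands of the TNF superfamily and the receptors they bind were examined in rat lung. Members were the genes whose current symbol begins with Tnfsf or Tnfrsf, together with Cd27, Cd40, Cd40lg, Faslg, Lta and Ltb, which belong to the same families under older names. Of 36 such genes in the rat gene table, 26 were matched to a probe through the RefSeq accession of the array, and 22 of these had a detected probe. They comprised 8 ligands and 14 receptors among 11146 detected genes. Each gene was represented by its brightest detected probe, and both detected probes of Tnfrsf8 were kept, which gave 23 member probes out of 21239 detected probes.

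Lung RNA came from 12 male rats aged 8-12 weeks, with 3 rats in each of 4 groups. The control rats breathed air and received saline, and carried no smoke or endotoxin exposure. The CS + LPS group was exposed to cigarette smoke (CS) and had lipopolysaccharide (LPS), the endotoxin of Gram-negative bacteria, instilled into the trachea, as a rat model of chronic obstructive pulmonary disease (COPD). The CS + LPS + NaHS group had the same exposure and received sodium hydrosulfide, a donor of hydrogen sulfide, beforehand. The CS + LPS + PPG group had the same exposure and received propargylglycine (PPG), an inhibitor of the hydrogen sulfide-forming enzyme cystathionine gamma-lyase. No group received NaHS or PPG without the exposure, and the tissue was a piece of whole lung, so that the number of cells of a type and the amount of RNA per cell cannot be told apart.

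TNF superfamily ligands are mostly trimeric proteins on the surface of immune cells, from which some are shed. Their receptors carry cysteine-rich repeats outside the cell. Many signal through TRAF adaptors to NF-kB, and those with a death domain can signal to caspases. In the lung, members of the families are known for the costimulation of T cells (Tnfrsf4, Tnfrsf9, Tnfrsf18, Cd27), the help given to B cells (Cd40), the survival of plasma cells (Tnfsf13 and its receptor Tnfrsf17), the organization of lymphoid tissue (Ltb) and the death of damaged cells (Faslg, Tnfsf10).

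The arrays lay on 2 slides. Control replicates 1 and 2 and all rats given NaHS or PPG were on slide 1, and control replicate 3 and all CS + LPS rats were on slide 2. Control replicate 3 also stood apart: its correlation with the other arrays was 0.936 to 0.956, and it was the lowest of the 12 arrays for 9 of 23 member probes and the highest for 2, against 27.9% and 31.1% of all detected probes. Among the controls, replicate 3 also differed in tissue markers. The heart muscle gene Myh6 read 14.78 there against 3.42 and 4.09 in replicates 1 and 2, and the fat gene Adipoq 11.61 against 3.68 and 4.32. The T cell gene Cd2 read 4.65 against 6.77 and 7.64. The part of tissue content in the values of this array was not tested. The 75th percentile of signal on an array was 856 to 1550 in control and 1489 to 2222 in the exposed groups, and 66.0% to 75.5% of probes were well above background. Alveolar type 2 markers summed to 906363 to 1329550 signal units per array and alveolar type 1 markers to 224668 to 342948, with 6 of 7 and 5 of 6 genes detected, so that defining lung markers were present on every array. Every difference below is on the log2 scale of processed signal, so that 1 corresponds to a fold change of 2, and is followed where needed by its value with the slide as a block in the model.

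The 250 bases before the start site are shown for Tnfsf13, the member with an adjusted call against control, and for Tnfrsf8, which had 2 detected probes. They are RefSeq sequence of assembly GRCr8, both genes lie on the minus strand, and capitals mark a match to the AP-1 letters TGANTCA.
Tnfsf13, chr10:54901816-54902065: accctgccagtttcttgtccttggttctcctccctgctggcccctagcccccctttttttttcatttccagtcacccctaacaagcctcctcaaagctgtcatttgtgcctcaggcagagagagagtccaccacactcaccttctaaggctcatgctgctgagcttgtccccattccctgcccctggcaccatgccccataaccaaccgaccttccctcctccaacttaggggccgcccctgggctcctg
Tnfrsf8, chr5:162451621-162451870: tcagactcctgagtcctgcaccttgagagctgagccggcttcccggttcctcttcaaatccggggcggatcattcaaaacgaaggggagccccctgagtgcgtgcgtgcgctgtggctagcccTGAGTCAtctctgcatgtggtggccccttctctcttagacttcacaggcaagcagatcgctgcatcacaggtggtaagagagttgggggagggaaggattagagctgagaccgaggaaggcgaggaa
Of the 22 detected members, 18 had such a window. The AP-1 letters, which read the same on both strands, lay in 2 of these 18 windows (Tnfrsf1b and Tnfrsf8) and in 6.34% of all 33469 windows. The NF-kB letters, GGG and TTCC with 3 bases of any kind between them (GGAA and CCC on the other strand), lay in 3 of 18 (Tnfrsf4, Lta and Ltb) and in 4.53% of all windows. No window of a member held both, and a match describes the sequence only. On the array, the Tnfsf13 probe lies at chr10:56500597-56500656, the Tnfrsf17 probe at chr10:4187731-4187790 and the Tnfrsf8 probe with the brighter signal at chr5:163716659-163716718, all on the minus strand of rn4, the build that the array headers name.

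Among the ligands, Tnfsf13 (APRIL), which supports plasma cells, was higher in all 9 exposed rats than in any control rat. Its log2 signal was 11.89, 11.61 and 11.03 in control, 12.11, 12.26 and 12.20 in CS + LPS, 12.32, 12.24 and 12.13 with NaHS, and 12.46, 12.40 and 12.74 with PPG. No exposed group overlapped with control, and control replicate 3 was the lowest array. With PPG, Tnfsf13 rose by 1.02 over control (95% CI 0.59 to 1.46, adjusted p = 0.0284), a fold change of 2.03. It was the only member with an adjusted p under 0.05 in that comparison, that is 1 of 23 against 4.64% of all detected probes. The difference was 0.68 in CS + LPS (adjusted p = 0.0880) and 0.72 with NaHS (adjusted p = 0.150), and neither passed.

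The call for Tnfsf13 with PPG held in the fit with slide as a block, at 0.78 (adjusted p = 0.0280), which for this comparison is the same as leaving out control replicate 3. The call was lost without PPG replicate 1 (1.06, adjusted p = 0.0811), replicate 2 (1.09, adjusted p = 0.0790) or replicate 3 (0.92, adjusted p = 0.103), and over all alternatives its adjusted p ranged from 0.0200 to 0.233. Within slide 1 alone the difference was 0.78 (adjusted p = 0.0335). In the PPG rats the summed markers of fat, 4808 to 7295, also lay above those of the other exposed rats, and those of heart muscle lay at 41645 to 72019. Their part in the Tnfsf13 value was not tested. With slide as a block the CS + LPS difference was 1.16 (adjusted p = 0.00124), a value that rests on control replicate 3 as the only control on slide 2.

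Ltb, the membrane subunit of lymphotoxin that organizes lymphoid tissue, was highest with PPG. Its values were 12.33, 12.27 and 11.95 in control, 12.01, 12.92 and 12.53 in CS + LPS, 12.68, 12.72 and 12.47 with NaHS, and 12.93, 12.83 and 13.11 with PPG. All rats given PPG lay above all controls and all rats given NaHS, but the highest CS + LPS rat lay among them. The difference from control with PPG was 0.77 (95% CI 0.31 to 1.24, adjusted p = 0.0594), and that from CS + LPS was 0.47 (95% CI 0.01 to 0.94, adjusted p = 0.470). Ltb with PPG differed from control by 0.66 with slide as a block and did not pass (adjusted p = 0.114). It passed in a fit to slide 1 alone, at the same 0.66 (adjusted p = 0.0367), and at the full value of 0.77 without CS + LPS replicate 1 (adjusted p = 0.0406) or 2 (adjusted p = 0.0471), which enter only through the shared spread.

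Tnfsf15 (TL1A), a costimulator of T cells that binds Tnfrsf25, had a dim probe, which was well above background on only 1 of 3 control arrays and on all others. It read 4.87, 4.90 and 5.47 in control, 5.29, 5.10 and 5.08 in CS + LPS, 5.25, 5.65 and 5.16 with NaHS, and 5.67, 5.81 and 5.58 with PPG. The PPG group lay above control and above CS + LPS without overlap, by 0.60 (adjusted p = 0.0785) and 0.53 (adjusted p = 0.349). With slide as a block these differences were 0.80 (adjusted p = 0.0328) and 1.11 (adjusted p = 0.0150). The second value rests on control replicate 3, the only control on slide 2. In that blocked comparison 22.6% of all detected probes passed. The probe entered through the exposed groups, so its upward differences were favoured by the detection filter.

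Tnfsf10 (TRAIL), a death ligand, read 6.42, 6.10 and 6.12 in control and 7.19, 6.95 and 6.60 with PPG. The groups did not overlap, and the difference was 0.70 (95% CI 0.08 to 1.31, adjusted p = 0.131). With NaHS it read 6.94, 6.56 and 6.97, again above every control, with a difference of 0.61 (adjusted p = 0.296). In CS + LPS its values were 5.74, 6.66 and 6.92, which spanned the control range.

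The other 4 ligands did not pass in any group against control. Faslg, the death ligand of killer lymphocytes, differed by -0.12 in CS + LPS (95% CI -0.72 to 0.47) and by 0.25 with PPG (-0.34 to 0.85). Lta, the soluble lymphotoxin, differed by -0.26 in CS + LPS (-0.78 to 0.26) and by -0.02 with PPG (-0.54 to 0.50). Tnfsf9 (4-1BBL) differed by -0.20 in both (lower bounds -0.81 and -0.80, upper bounds 0.40 and 0.41). Tnfsf12 (TWEAK) had the narrowest of these intervals, -0.21 to 0.42 in CS + LPS and -0.12 to 0.51 with PPG, and a 2-fold change lay outside every interval given here for these ligands.

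**Figure D1:**
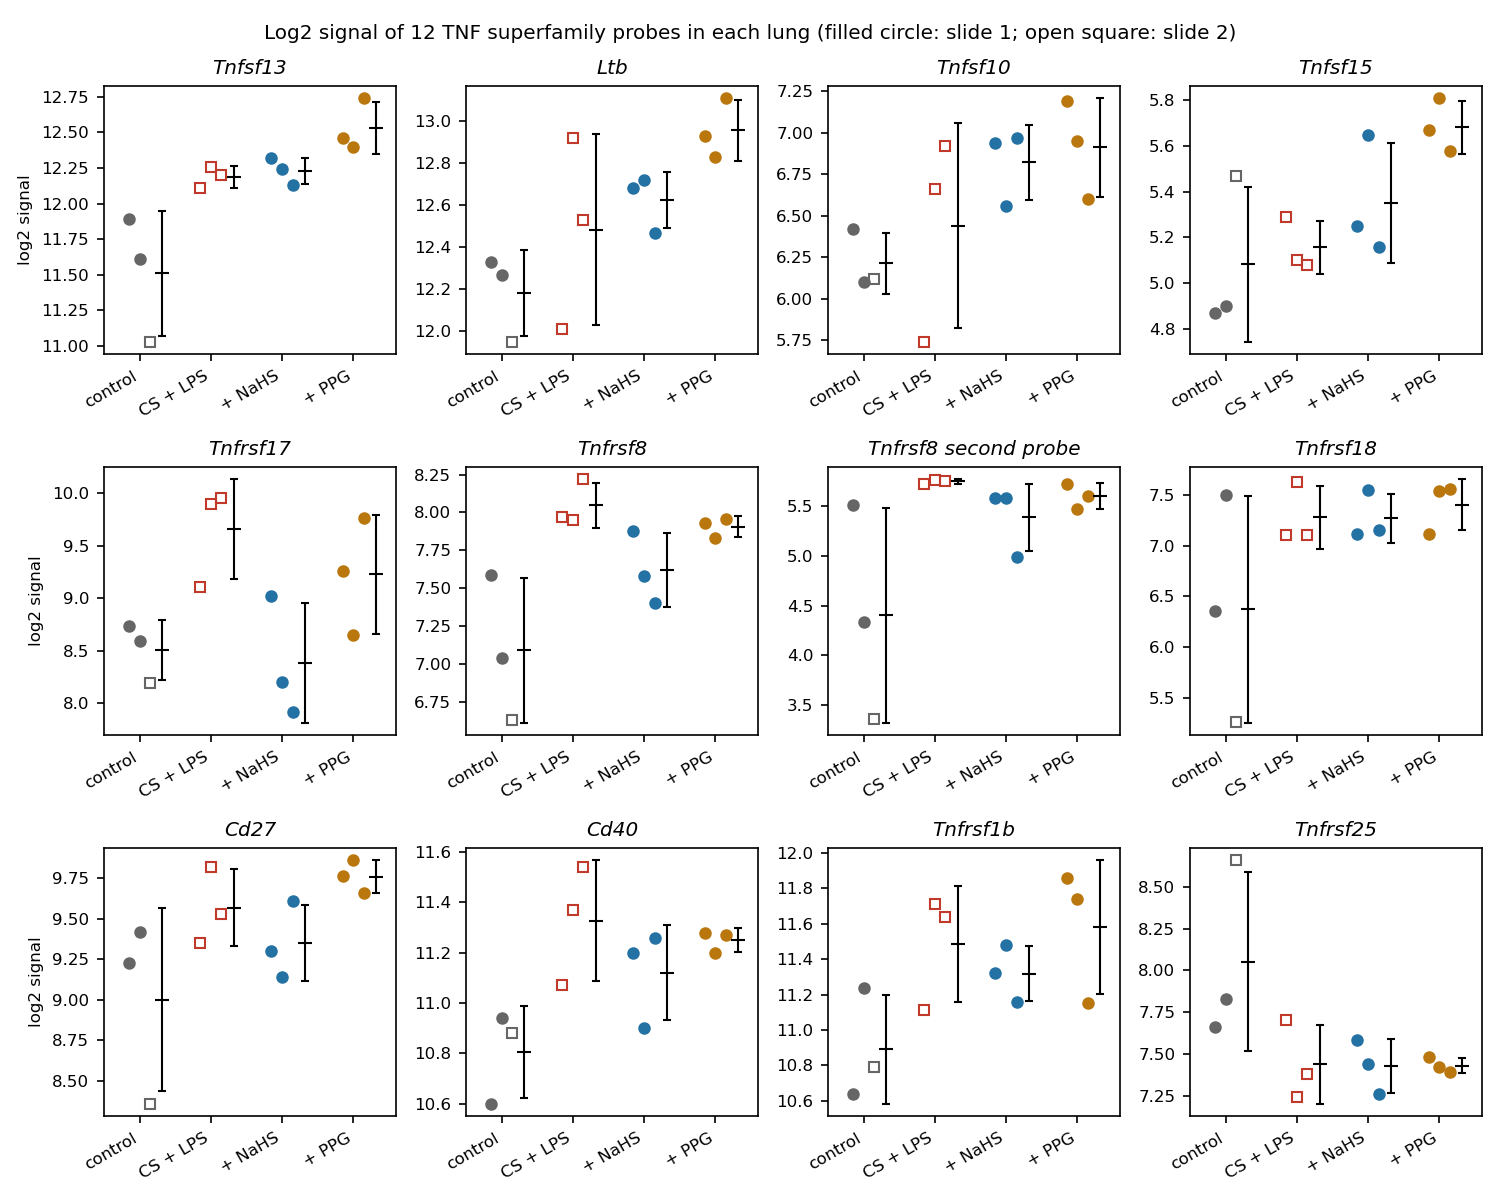
Log2 processed signal of 12 member probes in each of the 12 rats. Filled circles are arrays of slide 1 and open squares are arrays of slide 2, with the mean and SD of 3 rats beside them. Tnfsf13 lies at 11.03 to 11.89 in control and at 12.40 to 12.74 with PPG, and Tnfrsf17 at 9.11 to 9.96 in CS + LPS and at 7.92 to 9.02 with NaHS.

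Among the receptors, Tnfrsf17 (BCMA), the plasma cell receptor for Tnfsf13, was high in CS + LPS and low with NaHS. Its values were 8.74, 8.59 and 8.19 in control, 9.11, 9.90 and 9.96 in CS + LPS, 9.02, 8.20 and 7.92 with NaHS, and 9.26, 8.65 and 9.77 with PPG. The CS + LPS rats lay above all control rats and above all rats given NaHS, although the lowest CS + LPS rat and the highest NaHS rat were 9.11 and 9.02. Tnfrsf17 was 1.16 higher in CS + LPS than in control (95% CI 0.37 to 1.94, adjusted p = 0.0989) and lower with NaHS than in CS + LPS, with a difference of -1.28 (95% CI -2.06 to -0.49, adjusted p = 0.183). Neither had an adjusted p under 0.05. Both met the study's rule of a fold change of at least 2 with an unadjusted p under 0.05.

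All CS + LPS rats were on slide 2 and all NaHS rats on slide 1, so treatment and slide are linked only through control replicate 3. With slide as a block, Tnfrsf17 differed by 1.47 between CS + LPS and control (adjusted p = 0.0387) and by -1.76 between NaHS and CS + LPS (adjusted p = 0.0724). Without control replicate 3, the first difference was 0.996, just under the fold limit, and without CS + LPS replicate 3 it was 1.004, just over it. The NaHS difference lay between -1.60 and -1.05 whichever array was left out. With normexp background correction both were under 2-fold, at 0.81 and -0.95. On slide 1 alone, Tnfrsf17 differed from control by -0.28 with NaHS and by 0.56 with PPG, and PPG exceeded NaHS by 0.85 (adjusted p = 0.264). In the fit to all 12 arrays that difference had a 95% CI of 0.06 to 1.63 (adjusted p = 0.563).

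Mzb1, a gene of antibody-secreting cells, had group means of 8.16 in control, 9.28 in CS + LPS, 8.37 with NaHS and 8.78 with PPG. Like Tnfrsf17 it was highest in CS + LPS, but its lowest mean was in control and that of Tnfrsf17 was with NaHS. Its difference was 1.12 in CS + LPS (adjusted p = 0.098) and -0.91 between NaHS and CS + LPS (adjusted p = 0.36). Of the other genes of the plasma cell list, Xbp1 had its group means in the order of Tnfrsf17. Prdm1 and Sdc1 shared neither order. Prdm1, a transcription factor of plasma cells and other lymphocytes, was 0.55, 0.74 and 0.83 above control in CS + LPS, with NaHS and with PPG (adjusted p = 0.24, 0.24 and 0.095), and 0.18 higher with NaHS than in CS + LPS. Sdc1 differed from control by 0.02, -0.03 and -0.22 for the same 3 groups in turn, and Xbp1 by 0.16, -0.18 and 0.01. Between NaHS and CS + LPS, Xbp1 differed by -0.34 (adjusted p = 0.31) and Sdc1 by -0.04. The plasma cell list had 4 of 5 genes detected, with Jchain not among them, and its summed signal, in which the broadly expressed Xbp1 and Sdc1 are included, spanned 42295 to 48722 in the control rats and 43706 to 52484 in the CS + LPS rats. It spanned 40662 to 45987 in the NaHS rats and 38036 to 45129 in the PPG rats. The B cell list had 7 of 9 genes detected, without Ms4a1 and Cd79a, and its sum spanned 2535 to 3781 in the control rats and 4464 to 7422 in the CS + LPS rats. With NaHS the B cell sum spanned 5790 to 5804, and with PPG 4227 to 6068. Cd79b, part of the B cell receptor, was 1.24, 1.22 and 1.08 above control in the 3 exposed groups (adjusted p = 0.056, 0.13 and 0.057), whereas Pax5, the B cell transcription factor, differed by -0.04, 0.13 and -0.01. B cell sums lay above the control range in every exposed rat, and 0 of the 7 B cell genes had an adjusted p under 0.05 in these comparisons. The part of cell numbers in these values was not tested.

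**Figure D2:**
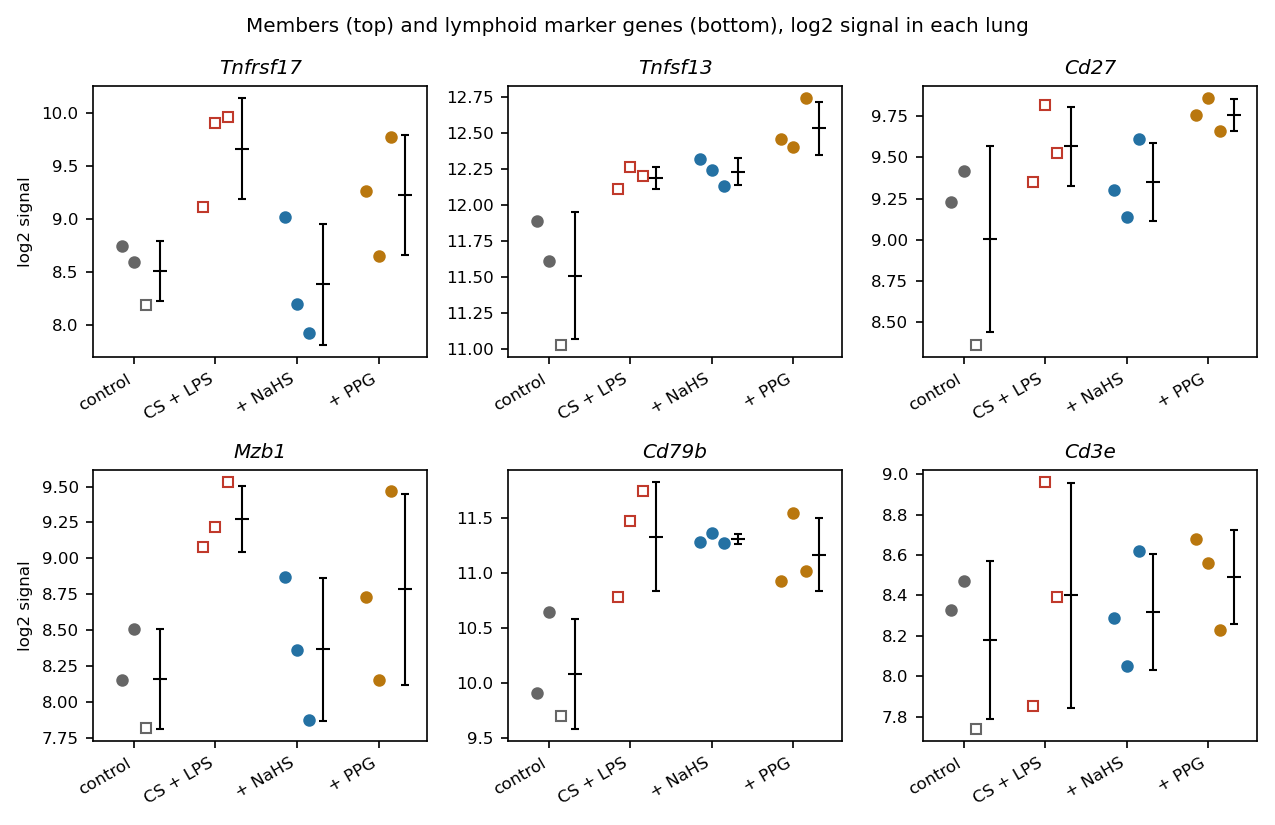
Log2 processed signal of 3 members (top) and of 3 lymphoid marker genes (bottom) in each rat, with mean and SD of 3 rats per group and symbols by slide as above. The group means of Mzb1 run from 8.16 in control to 9.28 in CS + LPS, and Cd79b is about 1 log2 unit above control in each exposed group.

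Tnfrsf8 (CD30), a receptor of activated lymphocytes, was measured by 2 probes. The brighter one read 7.59, 7.04 and 6.63 in control, 7.97, 7.95 and 8.22 in CS + LPS, 7.88, 7.58 and 7.40 with NaHS, and 7.93, 7.83 and 7.96 with PPG. CS + LPS and PPG lay above all controls, by 0.96 (95% CI 0.47 to 1.44, adjusted p = 0.0530) and 0.82 (0.33 to 1.30, adjusted p = 0.0577). With the filter requiring all 12 arrays, both passed at the same values (adjusted p = 0.0458 and 0.0474). Without control replicate 3 neither passed. With slide as a block the CS + LPS difference was 1.41, which rests on control replicate 3, and the PPG difference did not pass. NaHS overlapped with control and was 0.53 higher (adjusted p = 0.262). NaHS lay below CS + LPS without overlap, by a log2 difference of -0.43 (adjusted p = 0.60).

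The second Tnfrsf8 probe was dim. It read 5.51, 4.34 and 3.36 in control, where only replicate 1 was well above background, and 5.72, 5.76 and 5.75 in CS + LPS. Its differences from control were 1.34 in CS + LPS (adjusted p = 0.0983) and 1.20 with PPG (adjusted p = 0.0959), both within the fold rule. The control SD was 1.08 for this probe and 0.48 for the brighter one, and its upward differences were favoured by the detection filter, which it passed through the exposed groups. These 2 values fell under the fold limit without control replicate 3, where the second probe differed by 0.82 in CS + LPS and 0.67 with PPG, and with normexp correction by -0.01 and 0.04. Without control replicate 1, both probes passed in both groups: the brighter one at 1.21 (adjusted p = 0.0282) and 1.07 (adjusted p = 0.0366), and the second at 1.89 (adjusted p = 0.0240) and 1.75 (adjusted p = 0.0345), for CS + LPS and PPG in turn.

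The T cell costimulators had control values that spread as widely as the differences. Tnfrsf18 (GITR) read 6.36, 7.50 and 5.26 in control, the last not well above background, and 7.11, 7.54 and 7.56 with PPG. Its difference of 1.03 with PPG met the fold rule (95% CI 0.07 to 1.99, adjusted p = 0.148), but the groups overlapped at control replicate 2. Without control replicate 3 the difference was 0.47, and without control replicate 2 it was 1.59 (adjusted p = 0.0290). In CS + LPS, Tnfrsf18 was 0.90 higher (adjusted p = 0.217), and 1.47 without control replicate 2 (adjusted p = 0.0359). Cd27, on resting and memory lymphocytes, read 9.23, 9.42 and 8.36 in control and 9.76, 9.86 and 9.66 with PPG, a difference of 0.76 without overlap (adjusted p = 0.0901). Without control replicate 2 the Cd27 difference was 0.97 (adjusted p = 0.0481), and with slide as a block it was 0.44. Tnfrsf9 (4-1BB) was 0.71 higher with PPG (95% CI -0.02 to 1.43) and Tnfrsf4 (OX40) differed by -0.15 (-0.84 to 0.54). The T cell list had 10 of 11 genes detected, without Themis, and summed to 4194 to 12646 in control and 13790 to 14201 with PPG. It summed to 9248 to 15789 in CS + LPS and to 11109 to 12256 with NaHS, which both overlapped with control. Of its genes, 0 had an adjusted p under 0.05 in any comparison. Mean Cd4 was 7.29 in control and 7.18 with PPG, and mean Cd8b 7.58 and 7.59. Cd3d and Cd3g were lowest in control replicate 3, at 10.15 and 9.71. The part of T cell content in these differences was not tested.

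Cd40, the receptor for T cell help on B cells and antigen-presenting cells, read 10.60, 10.94 and 10.88 in control, 11.07, 11.37 and 11.54 in CS + LPS, and 11.28, 11.20 and 11.27 with PPG. Both groups lay above control without overlap, by 0.52 (95% CI 0.17 to 0.87, adjusted p = 0.0979) and 0.45 (0.09 to 0.80, adjusted p = 0.104). These values moved little with slide as a block, to 0.45 and 0.48. The further Cd40 probe differed by 0.47 and 0.27. Cd40lg, its ligand, was well above background on 1 of 12 arrays.

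TNF itself binds a pair of receptors. Tnfrsf1b (TNFR2), the receptor more restricted to immune cells, was 0.59 higher in CS + LPS (95% CI 0.08 to 1.11, adjusted p = 0.155) and 0.69 higher with PPG (0.17 to 1.21, adjusted p = 0.0939). Its control values of 10.64, 11.24 and 10.79 overlapped with those in CS + LPS, which were 11.11, 11.71 and 11.64. Tnfrsf1a (TNFR1), which most cells carry, differed by 0.17 in CS + LPS (-0.12 to 0.46) and by -0.04 with PPG (-0.32 to 0.25). The difference between the 2 receptors was not tested. Tnf itself, a member of the superfamily under its own symbol, rose by 1.03 with PPG (adjusted p = 0.0472), from 8.15, 8.12 and 7.96 in control to 9.44, 8.43 and 9.45. In CS + LPS it was 0.61 higher (adjusted p = 0.171) and with NaHS 0.60 higher (adjusted p = 0.268).

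Tnfrsf11b (osteoprotegerin), a soluble decoy receptor, read 9.95, 9.92 and 9.86 in control and lay above that narrow range in all 9 exposed rats. It was 0.55 higher in CS + LPS (95% CI 0.15 to 0.96, adjusted p = 0.113), 0.29 with NaHS (adjusted p = 0.421) and 0.40 with PPG (adjusted p = 0.175). Tnfrsf25 (DR3), the death domain receptor for Tnfsf15, was the member with the lowest differences. It read 7.66, 7.83 and 8.66 in control, 7.70, 7.24 and 7.38 in CS + LPS, 7.58, 7.44 and 7.26 with NaHS, and 7.48, 7.42 and 7.39 with PPG. Each exposed group had a difference of -0.62, with adjusted p of 0.146, 0.235 and 0.116, and with slide as a block the differences were -1.22, -0.32 and -0.32. Control replicate 3 was the highest array for this gene.

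The remaining receptors did not pass in any comparison without the slide in the model. Tnfrsf21 (DR6) was 0.38 higher in CS + LPS (95% CI -0.23 to 0.98) and differed by -0.13 with PPG (-0.74 to 0.48), while its further probe gave 0.60 and 0.10, so that the 2 probes had opposite signs with PPG. The blocked fit gave Tnfrsf21 differences of 0.92 in CS + LPS against control (adjusted p = 0.0390) and -1.33 in PPG against CS + LPS (adjusted p = 0.0405). Both rest on control replicate 3 as the only control on slide 2. Tnfrsf12a (Fn14), the receptor for Tnfsf12, differed by -0.35 in CS + LPS (-0.84 to 0.14) and by -0.24 with PPG (-0.73 to 0.26). Tnfrsf14 (HVEM), which binds Lta, differed by 0.21 (-0.31 to 0.73) and by -0.15 (-0.67 to 0.36).

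**Figure D3:**
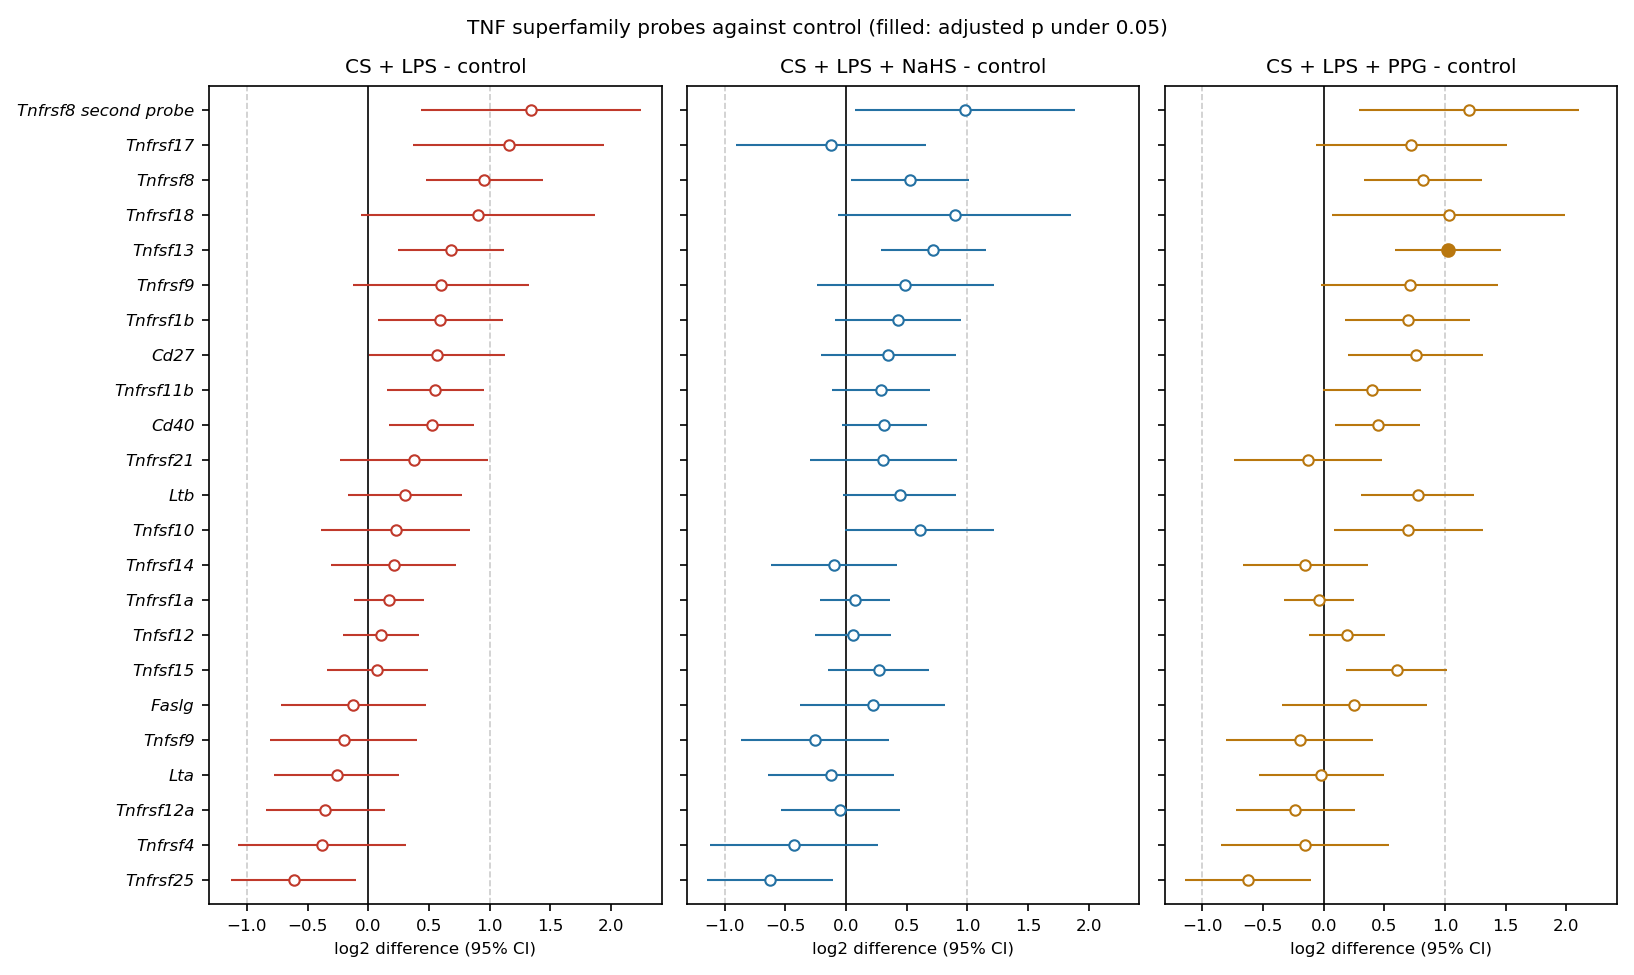
Log2 difference from control of the 23 member probes in the 3 exposed groups, with 95% confidence intervals from limma, ordered by the CS + LPS difference. Dashed lines mark a fold change of 2, and the filled circle is the only adjusted call, Tnfsf13 with PPG at 1.02.

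Counted over the 23 probes, 0 had an adjusted p under 0.05 in CS + LPS against control (2.02% of all detected probes), 0 with NaHS (0.0989%) and 1 with PPG (4.64%). By the fold rule, 2 were called in CS + LPS (4.56% of all), 0 with NaHS (2.67%) and 3 with PPG (4.38%), all of them higher. At an unadjusted p under 0.05, 8 were higher and 1 lower in CS + LPS, against 11.9% and 13.3% of all detected probes. With NaHS 3 were higher and 1 lower (9.01% and 8.12%), and with PPG 10 were higher and 1 lower (16.4% and 12.9%). At this p the higher counts hold both Tnfrsf8 probes in each group, and Tnfrsf18 and Tnfsf15 with PPG. The fold rule calls hold the second Tnfrsf8 probe in CS + LPS and with PPG, and Tnfrsf18 with PPG. Tnfrsf18, Tnfsf15 and the second Tnfrsf8 probe passed the detection filter only through the exposed groups. The methods' t-test made 0 adjusted calls among the members in these 3 comparisons. Exposed rats and controls did not overlap for 6 probes in CS + LPS (25.2% of all detected probes), 5 with NaHS (24.8%) and 10 with PPG (33.2%).

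The median difference of the member probes was 0.30 in CS + LPS, 0.29 with NaHS and 0.44 with PPG, where the medians over all detected probes were -0.04, 0.00 and -0.01. These 3 comparisons share the same control rats. Of the 23 probes, 20 were well above background on all 12 arrays. The Tnfrsf18 probe, the second Tnfrsf8 probe and the Tnfsf15 probe were not, and they entered through the exposed groups, so their upward differences were favoured by the detection filter.

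Between the exposed groups, which address whether the hydrogen sulfide donor or the inhibitor altered the response, no member had an adjusted p under 0.05. Among all detected probes, 0.593% had one for NaHS against CS + LPS, 0.523% for PPG against CS + LPS and 0% for PPG against NaHS. At an unadjusted p under 0.05 from limma, 0 members were higher and 1 (Tnfrsf17) was lower with NaHS than in CS + LPS, against 7.47% and 2.2% of all detected probes. With PPG, 2 (Ltb and Tnfsf15) were higher and 0 lower than in CS + LPS (7.3% and 3.21%), and 1 (Tnfrsf17) was higher and 0 lower than with NaHS (5.1% and 3.64%). The methods' t-test also gave 0 adjusted calls among the members. By the fold rule, Tnfrsf17 was the only member called, in NaHS against CS + LPS (1.7% of all). No member met it in PPG against CS + LPS (2.05%) or in PPG against NaHS (0.523%). The groups did not overlap for 3 members in NaHS against CS + LPS (20.5% of all) and for 2 in PPG against CS + LPS (19.1%).

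A 2-fold change lay outside 21 of 23 intervals for NaHS against CS + LPS, 18 for PPG against CS + LPS and 19 for PPG against NaHS. For NaHS against CS + LPS the intervals spanned -0.38 to 0.19 for Tnfrsf1a and -0.97 to 0.95 for Tnfrsf18. The exceptions there were Tnfrsf17 and the second Tnfrsf8 probe, at -1.27 to 0.55. The intervals against CS + LPS come from the fit without the slide, and CS + LPS lay on slide 2. They therefore do not cover a difference between the slides. With slide as a block, NaHS against CS + LPS gave -1.67 for Tnfrsf18 and -1.18 for Cd27, beyond 2-fold and outside these intervals. The PPG and NaHS rats all lay on slide 1. In the fit to all 12 arrays, Tnfsf13 was 0.30 higher with PPG than with NaHS, without overlap (95% CI -0.13 to 0.74, adjusted p = 0.675), Ltb 0.33 higher without overlap (-0.13 to 0.80, adjusted p = 0.663) and Cd27 0.41 higher without overlap (-0.15 to 0.97, adjusted p = 0.655). In a fit to slide 1 alone these differences were the same, with adjusted p of 0.280, 0.230 and 0.228. In all, 5 member probes did not overlap in this comparison, against 25.2% of all detected probes.

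**Figure D4:**
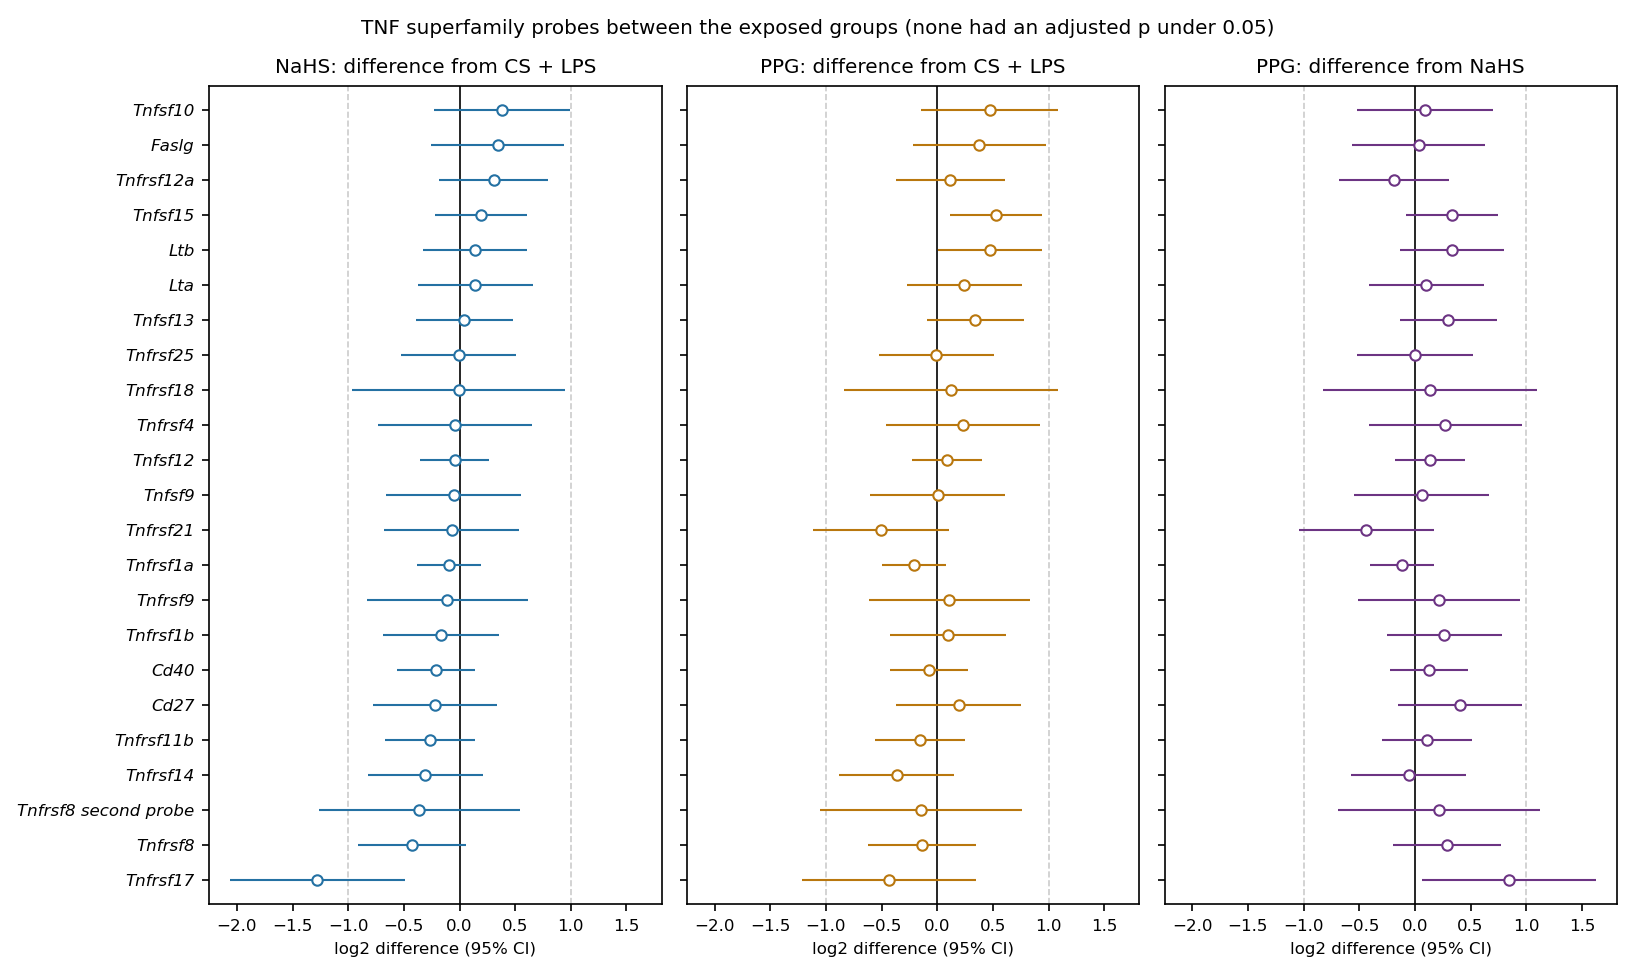
Log2 differences of the 23 member probes between the exposed groups, with 95% confidence intervals from limma, ordered by the difference of NaHS from CS + LPS. No interval belongs to an adjusted call, and Tnfrsf17 lies lowest for NaHS against CS + LPS at -1.28 and highest for PPG against NaHS at 0.85.

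Adding the slide to the model changed the members' values most where CS + LPS was involved. The slide term rests on control replicate 3 against the other controls, so slide and that lung's content cannot be told apart. With slide as a block, 9 member probes had an adjusted p under 0.05 in CS + LPS against control, where 41.6% of all detected probes had one, and 2 in PPG against control, where 3.02% had one. For NaHS against CS + LPS the count was 6 (23.0% of all) and for PPG against CS + LPS it was 5 (22.6%). In the blocked fit the CS + LPS difference equals the mean of the 3 CS + LPS arrays minus control replicate 3. Tnfrsf18 thus reached 2.01 and the second Tnfrsf8 probe 2.39 in CS + LPS, while Tnfrsf9 came to 0.03 and Tnfrsf4 to -1.18. The median of the members for PPG against CS + LPS was 0.10 without the block and -0.16 with it.

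**Figure D5:**
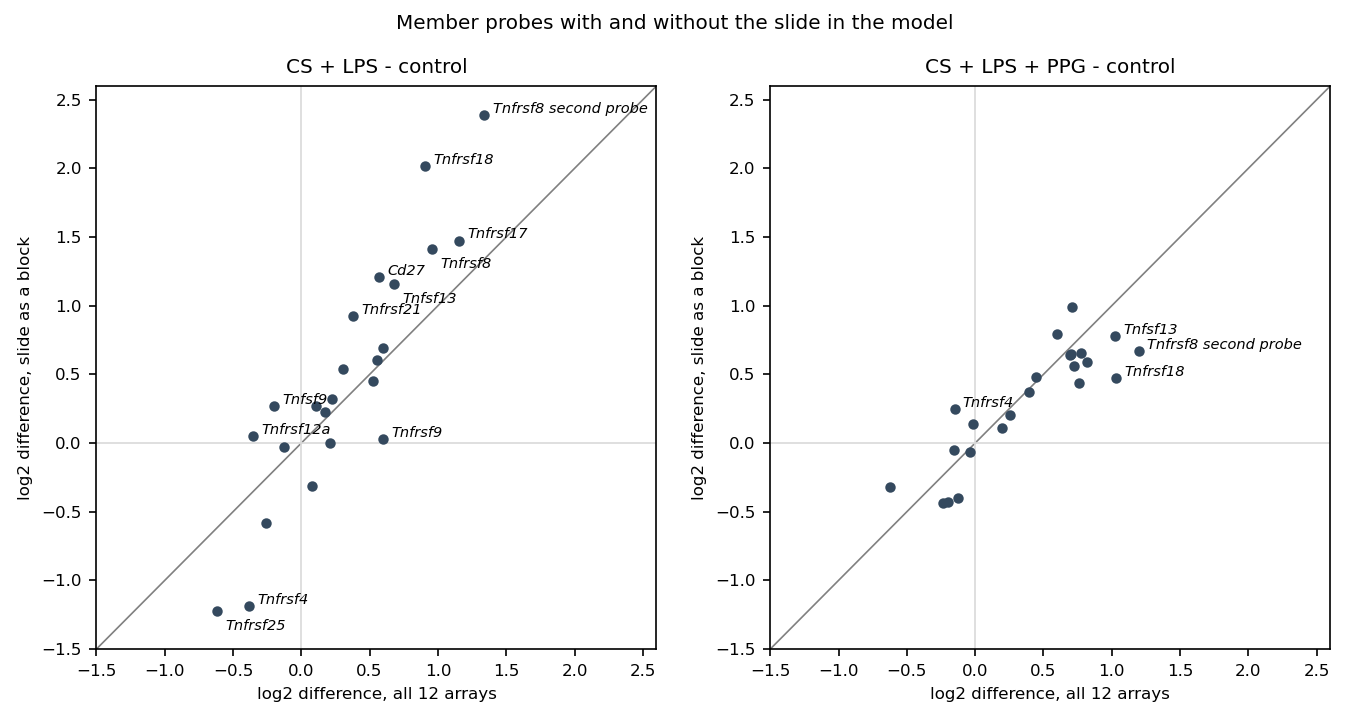
Log2 difference of each of the 23 member probes in the model without slide (horizontal axis) and with slide as a block (vertical axis), for CS + LPS and for PPG against control. Points on the grey diagonal are equal in both fits, and the second Tnfrsf8 probe moves from 1.34 to 2.39 in CS + LPS and from 1.20 to 0.67 with PPG.

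Of 24 ligand and receptor pairs of these families, 10 had both sides detected. Tnfsf13 and Tnfrsf17 were 0.68 and 1.16 above control in CS + LPS, 0.72 and -0.12 with NaHS, and 1.02 and 0.72 with PPG, so that the ligand was higher in each exposed group and the receptor was near control with NaHS. Tnfsf15 and its receptor Tnfrsf25 differed by 0.08 and -0.62 in CS + LPS and by 0.60 and -0.62 with PPG. Faslg and Fas, the death receptor it binds, differed by 0.22 and 1.10 with NaHS and by 0.25 and 0.95 with PPG. Fas was well above background on all arrays and met the fold rule with NaHS (adjusted p = 0.131). It read 7.50, 7.69 and 6.61 in control, with control replicate 3 the lowest. In CS + LPS, Faslg and Fas differed from control by -0.12 and 0.13. Fas was 0.97 higher with NaHS and 0.81 higher with PPG than in CS + LPS, which lay on the other slide. Between PPG and NaHS, Fas differed by -0.15. Ltb and its receptor Ltbr differed by 0.77 and -0.29 with PPG.

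The signalling genes downstream of the receptors were taken from a list of 49 adaptors, caspases, kinases and inhibitors, of which 34 were detected. Birc3 (cIAP2), an inhibitor of cell death recruited by TRAF proteins and induced by NF-kB, rose by 0.75 in CS + LPS (adjusted p = 0.0400) and by 0.72 with PPG (adjusted p = 0.0369). It read 9.01, 8.88 and 8.98 in control, 9.58, 9.52 and 10.01 in CS + LPS, 9.33, 9.44 and 9.36 with NaHS, and 9.85, 9.47 and 9.69 with PPG. No exposed rat overlapped with control, and the NaHS difference was 0.42 (adjusted p = 0.223). Birc3 was the only listed gene with an adjusted p under 0.05, 1 of 34 in CS + LPS and 1 of 34 with PPG, against 2.02% and 4.64% of all detected probes. Of the 34, 0 passed with NaHS against control (0.0989%) or between the exposed groups (0.593%, 0.523% and 0%). Between the exposed groups, at an unadjusted p under 0.05, 0 were higher and 1 lower in NaHS against CS + LPS (7.47% and 2.2%), 0 either way in PPG against CS + LPS (7.3% and 3.21%), and 1 higher and 1 lower in PPG against NaHS (5.1% and 3.64%).

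At an unadjusted p under 0.05, 10 of 34 were higher and 0 lower in CS + LPS (11.9% and 13.3% of all detected probes), 6 were higher and 2 lower with NaHS (9.01% and 8.12%), and 9 were higher and 3 lower with PPG (16.4% and 12.9%). Bid, which links death receptors to mitochondria, was 1.01 higher in CS + LPS and 1.04 higher with PPG, and met the fold rule in both. With NaHS it was 0.93 higher and did not meet the rule. Its control replicate 3 value was 4.47, against 6.65 and 6.37 in the other controls and 6.72 to 6.96 in the exposed rats. Bid was well above background on only 2 of 3 control arrays. It passed the detection filter through the exposed groups, so its upward differences were favoured by that filter. Tank, an adaptor that binds TRAF proteins, was 0.84 higher in CS + LPS (adjusted p = 0.0833) and 0.87 with PPG (adjusted p = 0.0599). Ikbkb, a kinase that activates NF-kB, differed by -0.68 with PPG (adjusted p = 0.0693). The median of the 34 genes was 0.20 in CS + LPS, 0.09 with NaHS and 0.09 with PPG.

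Summed markers of neutrophils and macrophages were higher with the exposure as well, while single genes differed. Of the 8 detected neutrophil genes, 1 was higher than control at an adjusted p under 0.05 in each exposed group. For the 6 macrophage genes the counts were 2 in CS + LPS, 0 with NaHS and 1 with PPG. Among all detected probes the shares were 2.02%, 0.0989% and 4.64%. The neutrophil markers' summed signal, with 8 of 10 genes detected and Mpo and Elane not detected, spanned 13191 to 22953 in the control rats. It spanned 24344 to 43456 in the CS + LPS rats, and the rats given NaHS or PPG lay between 27683 and 56917. Macrophage markers, with 6 of 8 detected, summed to 5646 to 11295 in control and to 15623 to 23689 over the exposed rats. No exposed rat lay within the control range of either sum. On its own, Lcn2 of the neutrophil list also separated them, at 12.21 to 12.43 in control and 13.44 to 14.52 in the exposed rats. Cxcr2 of the same list had means of 7.91 in control, 8.11 in CS + LPS, 7.96 with NaHS and 8.02 with PPG. S100a8 read 12.00 in CS + LPS replicate 1 and 12.04 in NaHS replicate 3, below the 12.55 of control replicate 2. The macrophage gene Cd163 went the other way, with means of 8.99 in control, 7.59 in CS + LPS, 7.77 with NaHS and 8.39 with PPG. Heart muscle markers (5 of 6 detected) spanned 6352 to 91828 in the control rats and 12828 to 53517 in the CS + LPS rats. They spanned 10281 to 56156 in the NaHS rats and 41645 to 72019 in the PPG rats. Their median difference with PPG was 3.596 from control and 2.24 from CS + LPS, with 0 adjusted calls. Fat markers (5 of 6 detected) spanned 1738 to 32490 in the control rats and 3061 to 3270 in the CS + LPS rats. For both heart muscle and fat, the highest control sum was that of control replicate 3. Fat markers spanned 2293 to 3019 in the NaHS rats and 4808 to 7295 in the PPG rats, so that all PPG rats lay above all other exposed rats. Their part in the member values was not tested.

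Of the matched genes, Tnfrsf19, Tnfsf4 and Tnfsf11 were well above background on 0 of 12 arrays, and no difference is given for them. No probe was matched for Tnfrsf10b, Tnfrsf11a, Tnfrsf13b, Tnfrsf13c, Tnfrsf22, Tnfrsf26, Tnfsf8, Tnfsf13b, Tnfsf14 and Tnfsf18, which were not analysed here.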

How the data were processed

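Lung RNA of 12 rats was hybridised singly to single-colour Agilent arrays. Per the file headers, the authors deposited scanner tables from Feature Extraction 10.7.3.1. These hold, for each spot, a linear intensity from which the software had already taken the background, and flags for outliers and for spots well above background. Of their 5 lists of changed probes, which also hold fold changes and p-values that were not used, only probe positions were taken, and 60 columns of array values were left out.

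Signals were turned into log2 values, outlier spots (446 to 704 of 58717 per array) were left out, spots of a probe were averaged, and each array was shifted by its own 75th percentile. A probe was detected when all 3 arrays of some group had it well above background. The number of arrays limits the precision. Symbols came from a RefSeq table of GRCr8, which named 17514 of 30367 probes. Limma 3.58.1 in R 4.3.3 was fitted to 12 arrays and all 21239 detected probes, with 6 comparisons, Benjamini-Hochberg adjustment and two-sided tests. "Rose" and "fell" mean an adjusted p under 0.05. The fold rule required a 2-fold change or more together with p under 0.05 before adjustment. Marker sums are linear signals. An exact permutation test of 3 against 3 cannot go below p = 0.1, so none was run for single genes. The fit was checked on simulated arrays.

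Members, marker and signalling lists, and alternatives were chosen with earlier results of these data known. Genes named are all members, and listed genes that met a rule or bear on one. Alternatives were quantile normalization, normexp (on the median spot signal, offset 50), slide and replicate blocks, 2 filters, the methods' t-test and leaving out each array.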

Additional observations from a re-analysis of the deposited data

How the results depend on the processing

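The replicate numbers did not pair the rats (residual correlation of same-numbered arrays -0.31 to 0.14 over 18 pairs), so the replicate block was only an alternative: adjusted calls with PPG against control went from 1 to 0, and no other count of calls moved by over 1.5 times. In CS + LPS against control, adjusted calls were 9 with slide as a block and 1 with the filter requiring all 12 arrays, against 0 before, and fold rule calls were 4 with quantile normalization, 0 with normexp, 8 with slide as a block, 1 with the 12-array filter and 1 by the methods' t-test, against 2. In PPG against control, adjusted calls were 2 with quantile normalization, 2 with normexp, 2 with slide as a block, 3 with the 12-array filter, 0 with no filter and 0 by the methods' t-test. Fold rule calls there were 0 with normexp, 0 with slide as a block, 1 with the 12-array filter and 1 by the methods' t-test, against 3. In NaHS against CS + LPS, fold rule calls were 0 with normexp and 6 with slide as a block, and adjusted calls 6. In PPG against CS + LPS, slide as a block gave 5 adjusted and 5 fold rule calls. Among the differences that met a rule, the sign reversed once, for the second Tnfrsf8 probe in CS + LPS against control, which gave -0.012 with normexp. With slide as a block, 3, 3 and 2 of 23 member probes changed sign in CS + LPS, NaHS and PPG against control, 7 in NaHS against CS + LPS and 9 in PPG against CS + LPS. The median for PPG against CS + LPS was 0.10, against -0.16 with that block and -0.03 to 0.10 when single arrays were left out. With no filter, the 23 member probes were still counted, with p-values adjusted over all probes.

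Leaving out each array in turn gave 0 to 2 adjusted calls in CS + LPS against control (2 without control replicate 1, 1 without control replicate 2) and 0 to 3 in PPG against control (0 when PPG replicate 1, 2 or 3 was left out, 3 without control replicate 1 or 2, 2 without control replicate 3 or CS + LPS replicate 1 or 2). The other 4 comparisons gave 0 to 0. Fold rule calls ranged from 0 to 3 in CS + LPS (0 without control replicate 3), from 0 to 1 with NaHS (the second Tnfrsf8 probe without control replicate 1 or NaHS replicate 3, Tnfrsf18 without control replicate 2), from 0 to 4 with PPG (0 without control replicate 3, 1 without PPG replicate 3), from 1 to 1 in NaHS against CS + LPS, from 0 to 0 in PPG against CS + LPS and from 0 to 1 in PPG against NaHS (Tnfrsf17 without NaHS replicate 1 or PPG replicate 2). The slide and the CS + LPS group cannot be told apart except through control replicate 3. The cause of the other shifts was not tested. Signals near background limit Tnfrsf18, Tnfsf15, the second Tnfrsf8 probe and, among the signalling genes, Bid.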
